A study of Homo sapiens with 16 samples.

Results

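The genes described here are 8 components and targets of the RAS to ERK pathway: the GTPases NRAS and HRAS, the kinase BRAF, and DUSP6, SPRY2, SPRY4, ETV4 and ETV5, whose transcription follows ERK activity. They were chosen by name, and all 8 were found among the 61906 genes listed in the short-read tables, with 70 annotated transcripts between them. Their identifiers in the tables are ENSG00000213281.5 for NRAS, ENSG00000174775.18 for HRAS, ENSG00000157764.14 for BRAF, ENSG00000139318.8 for DUSP6, ENSG00000136158.12 for SPRY2, ENSG00000187678.10 for SPRY4, ENSG00000175832.13 for ETV4 and ENSG00000244405.8 for ETV5. The study transfected 2 human cell lines with siRNA at 20 nM and took RNA 48 hours later. HEK-293T is an embryonic kidney line transformed with viral genes, and HT-1080 is a fibrosarcoma line known to carry an activating mutation in NRAS. The counts do not show alleles, so they do not say which NRAS copy the reads came from. In each line a control siRNA, siNegative, was compared with siHNRNPH1, an siRNA against HNRNPH1, an RNA-binding protein that takes part in splicing. Each of the 4 groups had 3 short-read libraries, which the submitters describe as biological replicates, and 1 long-read pool of the replicates. All cells of a group carry their line's genotype, and each model is a single established line.

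As background, RAS proteins switch on when exchange factors load them with GTP and switch off when GTPase activating proteins promote its hydrolysis. Active RAS recruits RAF kinases such as BRAF, which activate MEK and then ERK. ERK signalling raises transcription of its own inhibitors, among them the phosphatase DUSP6 and the Sprouty proteins SPRY2 and SPRY4, and of the ETS-family transcription factors ETV4 and ETV5. The level of these transcripts is widely used as a readout of ERK output.

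Library totals were 107.7 to 121.0 M reads assigned to transcripts in HEK-293T and 27.3 to 32.7 M reads in HT-1080. Line cannot be told apart from sequencing depth or run in comparisons between the lines. HNRNPH1, the target, fell in both lines. Its log2 fold change was -1.76 ± 0.20 (SE) in HEK-293T (edgeR adjusted p = 0.00939) and -1.49 ± 0.04 in HT-1080 (6.76e-09), and without HEK-293T siHNRNPH1 replicate 1 the former was -1.58. It was at 1107, 1105 and 1121 CPM (the count of a gene scaled to a common library total, over all assigned reads) in HEK-293T siNegative and at 234.1, 376.2 and 394.3 CPM in siHNRNPH1. In HT-1080 it was at 605.8 to 634.6 CPM against 228.5 to 231.5 CPM. The library HEK-293T siHNRNPH1 replicate 1 stood apart: with it, edgeR's quasi-likelihood test called 1997 genes in HEK-293T, and without it 12557. Results in HEK-293T are therefore given with and without it. All 6 marker genes listed for HT-1080 were higher there than in HEK-293T, such as CD44 at a mean of 3037 against 1.69 CPM. Of the 5 listed for HEK-293T, NEFM (258.0 against 0.0110 CPM), LIN28B (177.9 against 23.3 CPM) and PAX2 (1.34 against 0.394 CPM) were higher in HEK-293T, CDH2 was at 92.4 and 90.5 CPM, and NEFL was lower, at 66.9 against 109.6 CPM.

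Among the 8 genes, the lines differed most in 3 ERK output genes. Between the siNegative groups, SPRY4, ETV4 and ETV5 were 401-fold, 167-fold and 96.7-fold higher in HT-1080, while NRAS, HRAS and BRAF differed by factors between 1.23 and 2.18 and DUSP6 by 1.44. All 8 genes were tested and passed an adjusted p of 0.05, which 86.6% of the 19776 genes tested also did, so a call by itself says little here and the sizes carry the result. The genes higher in HT-1080 were HRAS, SPRY2, SPRY4, ETV4 and ETV5, 5 of the 8, against 40.8% of all genes. NRAS, BRAF and DUSP6 were lower in HT-1080.

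SPRY4, an inhibitor of receptor tyrosine kinase signalling (models at chr5:142310427-142325025, minus strand), was at 0.306, 0.301 and 0.380 CPM in HEK-293T siNegative, which is 34, 35 and 46 reads, and at 116.8, 102.1 and 115.7 CPM in HT-1080 siNegative. ETV4, an ETS factor of the PEA3 subfamily (chr17:43527844-43546401, minus strand), was at 0.495, 0.422 and 0.413 CPM in HEK-293T and at 60.4, 64.2 and 62.1 CPM in HT-1080. ETV5, its close relative (chr3:186045644-186109091, minus strand), was at 1.98, 1.75 and 1.83 CPM in HEK-293T and at 156.9, 140.6 and 153.5 CPM in HT-1080. In all 3 genes the lowest HT-1080 library lay far above the highest HEK-293T library. The log2 differences, HT-1080 minus HEK-293T, were 8.65 ± 0.10 (SE) for SPRY4, 7.39 ± 0.08 for ETV4 and 6.59 ± 0.07 for ETV5, with edgeR adjusted p of 1.36e-12, 9.55e-13 and 1.04e-12.

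SPRY2, the other Sprouty gene (chr13:80335519-80341333, minus strand), was readily counted in both lines, at 19.6 to 21.2 CPM in HEK-293T siNegative and 60.2 to 65.8 CPM in HT-1080 siNegative, a log2 difference of 1.86 ± 0.05. DUSP6, the phosphatase that acts on ERK itself (chr12:89348062-89352497, minus strand), did not follow the other output genes. It was at 0.945, 0.869 and 1.06 CPM in HEK-293T and at 0.513, 0.498 and 0.661 CPM in HT-1080 siNegative. The HT-1080 libraries were thus the lower ones, without overlap, and the gene was near 1 CPM or below in all of them. The log2 difference of -0.52 ± 0.20 passed narrowly (edgeR adjusted p = 0.0347). It did not pass with the HEK-293T counts thinned to the depth of HT-1080 (adjusted p = 0.0647), with DESeq2 (0.0962), without HEK-293T siNegative replicate 1 (0.0610) or 3 (0.0967), or without HT-1080 siNegative replicate 1 (0.0897) or 2 (0.112).

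The RAS and RAF genes were at levels of the same order in the lines. NRAS (chr1:114704333-114716802, minus strand) was at 189.7, 188.6 and 190.8 CPM in HEK-293T siNegative and at 133.8, 119.4 and 133.8 CPM in HT-1080 siNegative, so the line known for mutant NRAS had the lower NRAS level (log2 difference -0.30 ± 0.05, edgeR adjusted p = 2.32e-04). HRAS (chr11:532243-535609, minus strand) was at 25.9, 24.7 and 25.0 CPM in HEK-293T and at 41.9, 51.8 and 43.9 CPM in HT-1080, a log2 difference of 1.12 ± 0.08. BRAF (chr7:140723545-140925010, minus strand) was at 65.7 to 66.1 CPM in HEK-293T and 31.9 to 39.4 CPM in HT-1080, a log2 difference of -0.62 ± 0.07. The groups did not overlap for any of these genes.

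**Figure D1:**
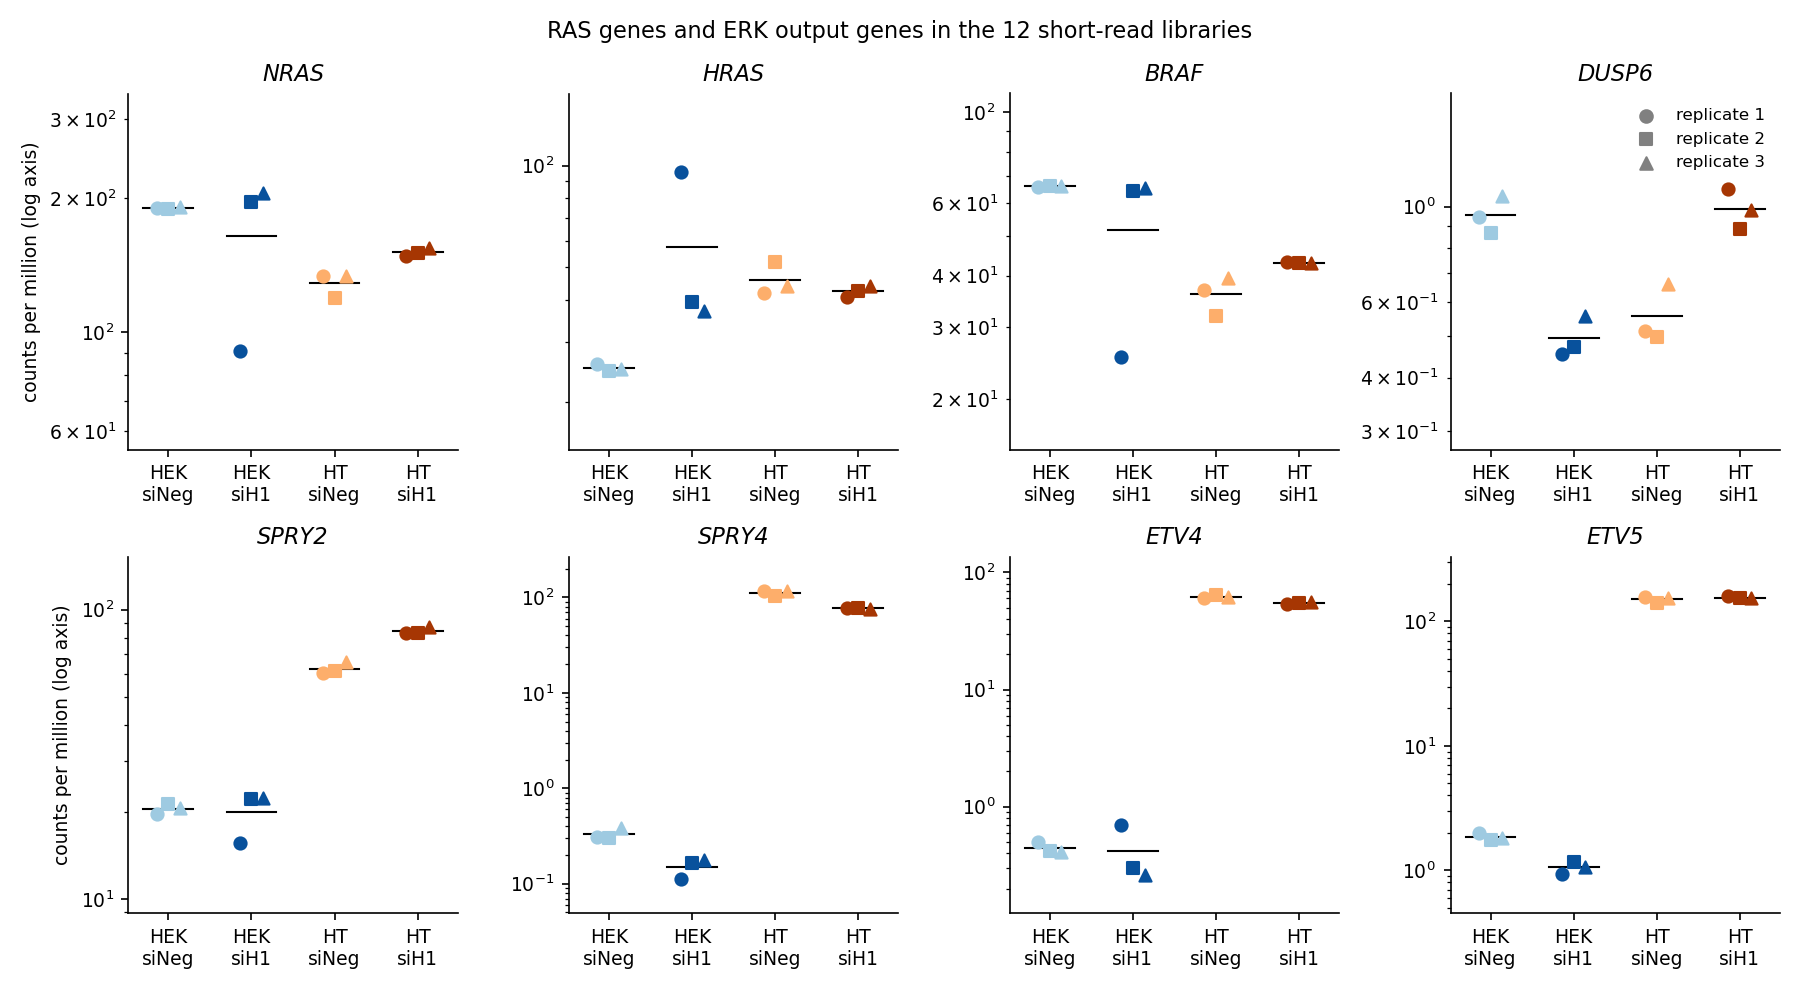
CPM of the 8 genes in each of the 12 short-read libraries, on log axes that differ between panels; colours mark the 4 groups (HEK, HEK-293T; HT, HT-1080; siNeg, siNegative; siH1, siHNRNPH1), symbols the replicate numbers and lines the group means of 3. SPRY4, ETV4 and ETV5 sit near or below 2 CPM in HEK-293T and above 50 CPM in HT-1080, and in HEK-293T siHNRNPH1 replicate 1 lies away from replicates 2 and 3 for NRAS, HRAS, BRAF, SPRY2 and ETV4.

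The next question was whether siHNRNPH1 changed these genes in HEK-293T. Of the 8, 3 were called and all were lower: DUSP6, ETV5 and SPRY4, the ERK output genes other than SPRY2 and ETV4. The background is 10% of the 19966 genes tested called in either direction and 4.88% called lower. The members were few and chosen with earlier results known, so the shares are a description.

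DUSP6 fell from 0.945, 0.869 and 1.06 CPM to 0.455, 0.472 and 0.557 CPM, with no overlap. The log2 fold change was -0.98 ± 0.18 (SE, n = 3 against 3, edgeR adjusted p = 0.0250). ETV5 fell from 1.98, 1.75 and 1.83 CPM to 0.937, 1.17 and 1.07 CPM, again with no overlap (-0.84 ± 0.14, edgeR adjusted p = 0.0229). SPRY4 fell from 0.306, 0.301 and 0.380 CPM to 0.111, 0.166 and 0.176 CPM (-1.15 ± 0.26, edgeR adjusted p = 0.0455). All 3 are low in this line: the siHNRNPH1 libraries held 49 to 60 reads of DUSP6, 101 to 141 of ETV5 and 12 to 20 of SPRY4.

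These 3 falls did not rest on the library that stood apart. Without HEK-293T siHNRNPH1 replicate 1, edgeR gave -0.96 ± 0.20 for DUSP6 (adjusted p = 2.18e-04), -0.78 ± 0.14 for ETV5 (4.19e-05) and -1.0 ± 0.34 for SPRY4 (0.0133). Leaving out any one of the other 5 HEK-293T libraries kept each fold change between -0.80 and -1.26 but ended the call, with adjusted p of 0.0600 to 0.140 for DUSP6, 0.0697 to 0.138 for ETV5 and 0.0926 to 0.203 for SPRY4. The SPRY4 call was also lost with scaling by library totals (0.0524) and with no filter on low counts (0.0793). In bulk RNA, fewer cells expressing a gene and less RNA per cell cannot be told apart.

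For the other 5 genes replicate 1 of siHNRNPH1 lay away from replicates 2 and 3 in HEK-293T, and the calls of HRAS, ETV4 and BRAF turned on it. NRAS was at 90.9, 195.9 and 205.5 CPM with siHNRNPH1, BRAF at 25.4, 64.2 and 65.5 CPM, and SPRY2 at 15.6, 22.1 and 22.4 CPM, replicate 1 being the low value each time. HRAS went the other way, at 95.6, 39.5 and 37.0 CPM, and so did ETV4, at 0.696, 0.298 and 0.260 CPM. With all libraries none of the 5 was called, with log2 fold changes of -0.25 ± 0.29 for NRAS (edgeR adjusted p = 0.634), -0.39 ± 0.34 for BRAF (0.513), -0.06 ± 0.15 for SPRY2 (0.825), 1.19 ± 0.42 for HRAS (0.140) and -0.10 ± 0.44 for ETV4 (0.913). HRAS was called by DESeq2 (adjusted p = 0.0283) and by edgeR when all 12 libraries shared 1 estimate of the spread (0.0217).

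Without that library 6 of the 8 were called, where the background was 61.8% of 20329 genes. HRAS rose by a log2 fold change of 0.55 ± 0.04 (edgeR adjusted p = 1.79e-10), and its 3 siHNRNPH1 libraries all lay above the 24.7 to 25.9 CPM of siNegative, replicate 1 included. ETV4 fell by -0.72 ± 0.27 (0.0258), from 49 to 55 reads in the siNegative libraries to 36 and 28. BRAF was called at -0.08 ± 0.03 (0.0428), 0.946 of its control level. NRAS at 0.02 ± 0.03 (0.505) and SPRY2 at 0.06 ± 0.05 (0.275) were not called. What sets replicate 1 apart was not tested. It had the lowest HNRNPH1 level of the 3 siHNRNPH1 libraries, 234.1 against 376.2 and 394.3 CPM. Other genes also lay far off there in either direction, such as NF1 (37.1 against 181.8 and 184.2 CPM) and MAP2K2 (161.1 against 79.5 and 70.8 CPM). Some did not, such as GRB2 (109.8 against 108.0 and 105.0 CPM).

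In HT-1080 the output genes moved in different directions. Of the 8 genes, 6 were called, 2 lower (SPRY4 and ETV4) and 4 higher (SPRY2, DUSP6, NRAS and BRAF). The background was 65.3% of 16145 genes called, 32.7% higher and 32.6% lower, so the share of the members called is near that of all genes.

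SPRY4 fell from 116.8, 102.1 and 115.7 CPM to 77.7, 76.8 and 75.9 CPM, the largest decrease of the 8 in this line (-0.61 ± 0.05, edgeR adjusted p = 7.43e-06). ETV4 fell from 60.4, 64.2 and 62.1 CPM to 53.8, 55.1 and 55.9 CPM (-0.25 ± 0.05, edgeR adjusted p = 0.00119). ETV5 stayed within its spread, at 156.9, 140.6 and 153.5 CPM against 159.2, 153.7 and 153.9 CPM (-0.02 ± 0.05, edgeR adjusted p = 0.760). The ETV4 groups do not overlap and the ETV5 groups do, and a difference between the 2 genes was not tested. Without HT-1080 siNegative replicate 2, the lowest control value of ETV5, edgeR called ETV5 at -0.07 (adjusted p = 0.0313).

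SPRY2 rose from 60.2, 61.4 and 65.8 CPM to 83.2, 82.6 and 87.1 CPM (0.36 ± 0.05, edgeR adjusted p = 1.26e-04), opposite to SPRY4. DUSP6 rose from 0.513, 0.498 and 0.661 CPM to 1.10, 0.888 and 0.983 CPM (0.75 ± 0.23, edgeR adjusted p = 0.0175). The DUSP6 groups do not overlap, but the call was lost without HT-1080 siNegative replicate 1 (0.0619) or 2 (0.0633), without siHNRNPH1 replicate 1 (0.0657), with DESeq2 (0.138) and with no filter on low counts (0.0536). The calls of SPRY2, SPRY4 and ETV4 held in each of the 6 fits that left out 1 HT-1080 library.

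The RAS and RAF genes changed little in HT-1080. Among the siNegative libraries, replicate 2 lay furthest from the others for each gene, lowest for NRAS and BRAF and highest for HRAS. What sets that library apart was not tested. NRAS rose from 133.8, 119.4 and 133.8 CPM to 148.2, 150.7 and 154.0 CPM (0.16 ± 0.05, edgeR adjusted p = 0.0187). BRAF rose from 37.0, 31.9 and 39.4 CPM to 43.2, 42.9 and 43.0 CPM (0.19 ± 0.07, edgeR adjusted p = 0.0410). HRAS was at 41.9, 51.8 and 43.9 CPM and at 40.9, 42.6 and 44.0 CPM (-0.18 ± 0.08, edgeR adjusted p = 0.0776), overlapping groups. These small changes depended on single libraries: the NRAS call was lost without siHNRNPH1 replicate 2 (0.0590) or 3 (0.0765), and the BRAF call without siNegative replicate 1 (0.0671) or siHNRNPH1 replicate 1 (0.103), 2 (0.0967) or 3 (0.0958). HRAS was called without siNegative replicate 1, at -0.25 (edgeR adjusted p = 0.0240), and with no filter at -0.20 (0.00719). DESeq2 did not call BRAF (0.0845). When all 12 libraries shared 1 estimate of the spread, only DUSP6, SPRY2 and SPRY4 were called in HT-1080.

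**Figure D2:**
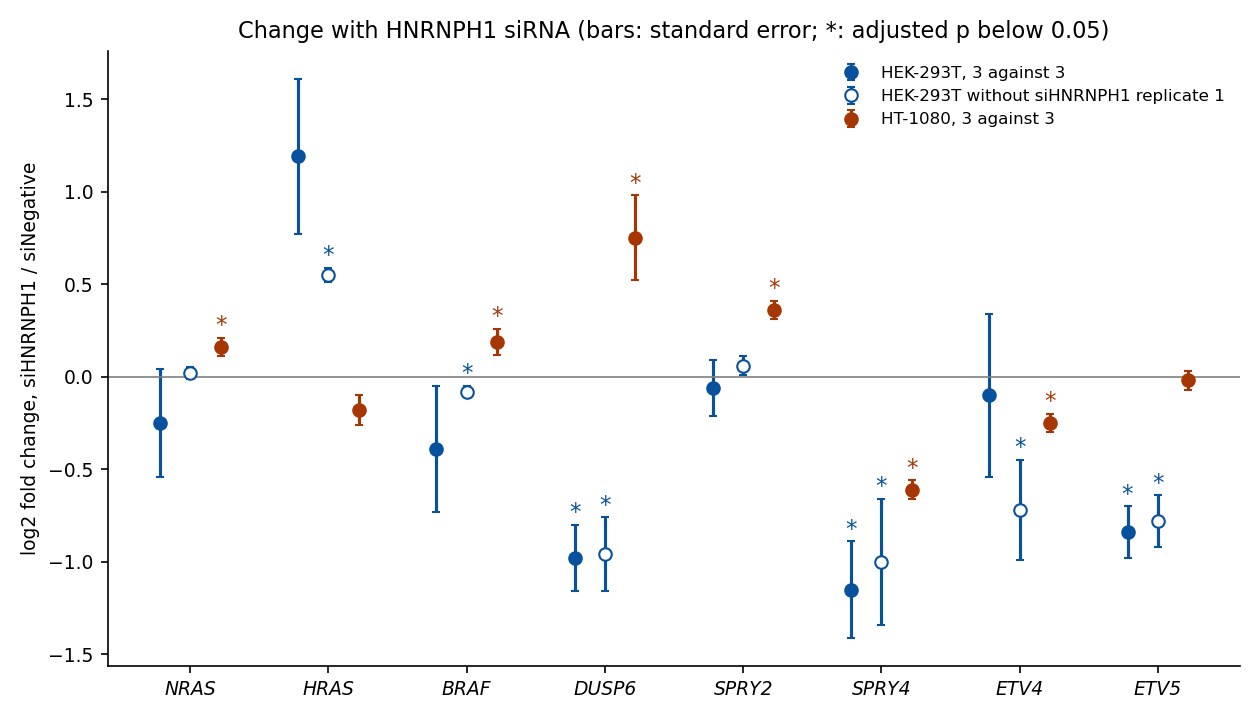
Log2 fold change of siHNRNPH1 over siNegative for the 8 genes, with standard errors derived from the edgeR test. Filled points use 3 libraries a group, open points leave out HEK-293T siHNRNPH1 replicate 1, and stars mark edgeR adjusted p below 0.05. DUSP6 lies at -0.98 in HEK-293T and 0.75 in HT-1080, and HRAS in HEK-293T moves from 1.19 to 0.55 without replicate 1.

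Whether the siRNA effect differed between the lines was tested directly, as the line by siRNA interaction over all 12 libraries. DUSP6 and ETV5 were called, 2 of 8, where the background was 19% of 21276 genes. The DUSP6 effect in HT-1080 exceeded that in HEK-293T by 1.66 ± 0.26 on the log2 scale (edgeR adjusted p = 0.00139), since it fell in every HEK-293T siHNRNPH1 library and rose in every HT-1080 one. The ETV5 difference was 0.75 ± 0.13 (edgeR adjusted p = 0.00205): it fell in HEK-293T and had no called change in HT-1080. For SPRY4, lower in both lines, the difference of 0.47 ± 0.19 was not called (0.148). The DUSP6 and ETV5 calls held in all 12 fits that left out 1 library.

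Without HEK-293T siHNRNPH1 replicate 1, 5 of 8 interactions were called, where the background was 49% of 19447 genes. The HRAS difference was then -0.78 ± 0.10 (edgeR adjusted p = 4.62e-06), against -1.45 ± 0.47 (0.0538) with all libraries. It was also called without siHNRNPH1 replicate 2 (-1.69, adjusted p = 0.0245) or 3 (-1.72, 0.0161) of HEK-293T, and by DESeq2 (-1.43, 0.0121). SPRY2 at 0.25 ± 0.07 (0.00686) and BRAF at 0.22 ± 0.08 (0.0355) were called only without replicate 1. NRAS, SPRY4 and ETV4 were not called in either fit, and the ETV4 estimate changed sign, from -0.23 to 0.41.

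The rest of the pathway was read from lists of 68 further genes, written with earlier results of these data known. In HEK-293T 3 of the 68 rose and 2 fell, against 25 and 23 without siHNRNPH1 replicate 1 and 4 and 7 with DESeq2, and in HT-1080 25 of 66 tested rose and 23 fell. Over all genes 10%, 61.8% (without replicate 1) and 65.3% (HT-1080) were called by edgeR, and the shares of the list genes called are near these. The median log2 fold change of the lists was -0.02 in HEK-293T and 0.09 in HT-1080, beside 0.02 and 0.01 over all genes tested.

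With all libraries 3 of the list genes were called in both lines, and without HEK-293T siHNRNPH1 replicate 1 there were 34. The share of all genes called in both lines was not counted, so these 2 counts are a description. Without that library 61.8% of all genes were called in HEK-293T, and 65.3% were called in HT-1080. CCND1, which encodes cyclin D1 and responds to ERK, fell in HEK-293T from 48.7 ± 0.894 to 16.1 ± 3.79 CPM (SD, n = 3), and in HT-1080 from 1750 ± 68.3 to 326.1 ± 5.96 CPM; edgeR gave -1.63 ± 0.18 (adjusted p = 0.00917) and -2.49 ± 0.05 (2.71e-09). SHOC2, a scaffold that helps to activate RAF kinases, fell from 74.2 ± 0.730 to 33.6 ± 11.4 CPM and from 50.6 ± 1.57 to 34.7 ± 1.30 CPM (-1.18 ± 0.25, edgeR adjusted p = 0.0414, and -0.61 ± 0.05, 3.80e-06). The SHOC2 call in HEK-293T was lost with scaling by library totals. MRAS, a RAS relative that works with SHOC2, rose from 13.3 ± 0.232 to 24.3 ± 1.69 CPM and from 1.88 ± 0.238 to 6.84 ± 0.877 CPM (0.85 ± 0.10, edgeR adjusted p = 0.0101, and 1.79 ± 0.14, 3.12e-06). Without replicate 1 the HEK-293T values were -1.47 ± 0.04 for CCND1, -0.95 ± 0.04 for SHOC2 and 0.87 ± 0.05 for MRAS.

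The 16 other ERK output genes also split. In HT-1080 7 rose, 7 fell, FOS was not called and SPRY1 was too low to test, beside 32.7% higher and 32.6% lower over all genes. VGF (2.32 ± 0.12) and EGR1 (1.53 ± 0.11), both induced early by growth factors, rose most, and CCND1 and FOSL1 (-1.61 ± 0.05), an AP-1 subunit, fell most. EGR1 and FOSL1 stand outside the naming rule and were chosen after their values were seen, as the next genes by size. In HEK-293T 1 of the 16, CCND1, was called, and it fell, beside 10% of all genes called and 4.88% called lower. Without siHNRNPH1 replicate 1, 8 were higher and 4 lower (61.8% of all genes called). With DESeq2 1 was higher and 3 were lower, and the DESeq2 share of all genes was not counted. At baseline 13 of the 16 were higher in HT-1080 (40.8% of all genes) and 2 lower, with a median log2 difference of 4.52, beside -0.10 over all genes.

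**Figure D3:**
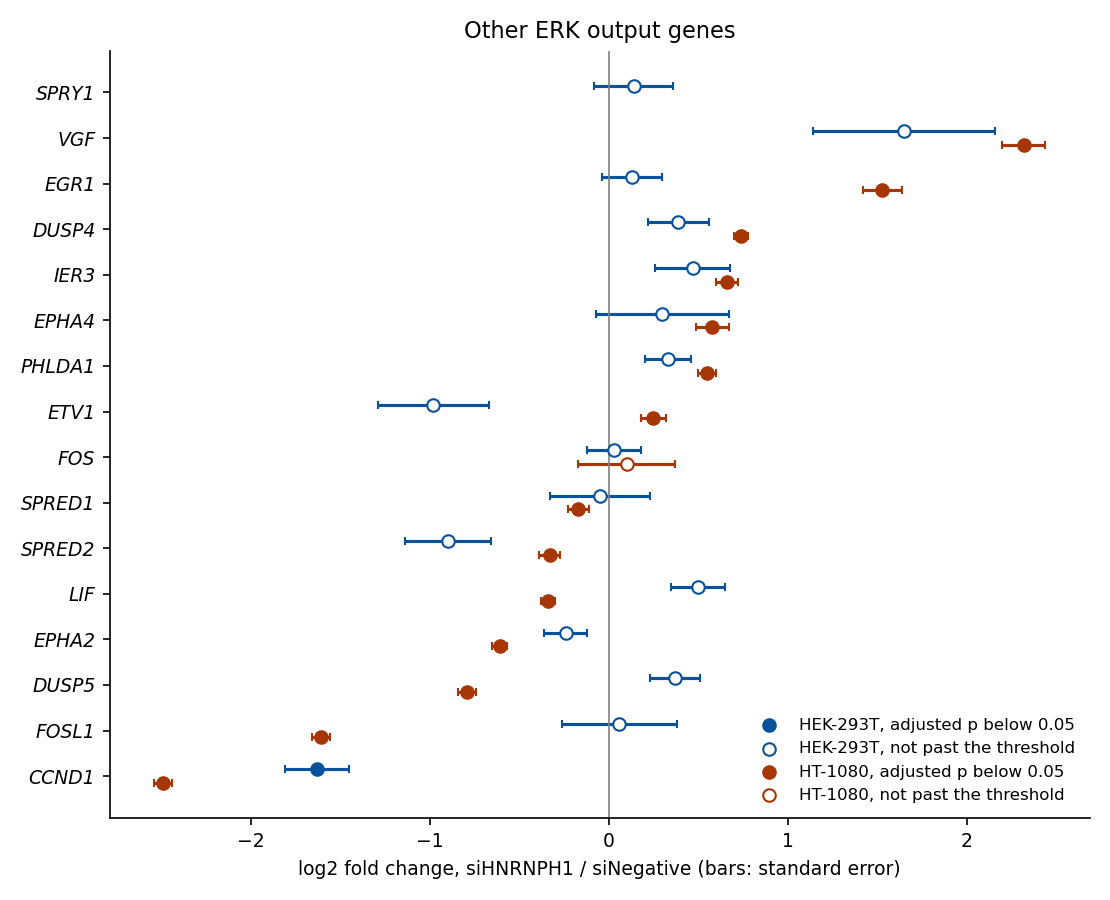
Log2 fold change of siHNRNPH1 over siNegative for 16 further ERK output genes, sorted by the value in HT-1080, with standard errors derived from the edgeR test. Filled points passed an edgeR adjusted p of 0.05. In HT-1080 7 genes lie to the right and 7 to the left of 0 past the threshold, and in HEK-293T only CCND1 is filled; SPRY1 was not tested in HT-1080.

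Upstream of RAS, 2 of 12 receptors and adaptors were called in HEK-293T, both higher (10% of all genes called), against 6 higher and 4 lower without siHNRNPH1 replicate 1 (61.8%). The 2 were PDGFRB, a growth factor receptor that stayed below 1 CPM there (1.16 ± 0.19, edgeR adjusted p = 0.0206), and GRB2, the adaptor that brings the exchange factor SOS to receptors, from 62.9 ± 0.562 to 107.6 ± 2.45 CPM (0.75 ± 0.11, 0.0171). GRB2 was at 109.7 ± 1.32 and 108.5 ± 2.11 CPM in HT-1080, where it was not called (-0.08 ± 0.04, edgeR adjusted p = 0.0911), and its effect differed between the lines (-0.91 ± 0.12, adjusted p = 4.20e-04). In HT-1080 4 of 11 tested rose and 1 fell, beside 65.3% of all genes called. IGF1R rose most, from 71.0 ± 10.3 to 200.3 ± 3.92 CPM (1.43 ± 0.09, edgeR adjusted p = 4.88e-07), followed by ERBB2 (0.75 ± 0.06).

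In HEK-293T with all libraries, edgeR called 10% of all genes. It called none of 6 exchange factors, 6 GTPase activating proteins, 8 lipid processing genes, 6 RAF, MEK and ERK kinases or 5 ERK-activated kinases. DESeq2 called 1 of them, an exchange factor that was lower, and its share of all genes was not counted. Without siHNRNPH1 replicate 1, edgeR called 4 of 6, 5 of 6, 6 of 8, 3 of 6 and 2 of 5, beside 61.8% of all genes. In HT-1080 each of these lists moved both ways. RASGRP1 (-2.07 ± 0.41) and RASGRP3 (-1.45 ± 0.32), exchange factors counted below 1 CPM there, fell. Of the GTPase activating proteins DAB2IP fell (-0.64 ± 0.05) and RASA3 rose (0.57 ± 0.05). FNTB, a farnesyltransferase subunit (-0.85 ± 0.06), and RCE1, a protease that trims RAS proteins (-0.69 ± 0.07), fell, as did the kinase MAP2K1 (-0.42 ± 0.05). Of the 4 other RAS-family GTPases 3 rose and 1 fell, RRAS2 (-0.67 ± 0.04), beside 65.3% of all genes called. Of the 5 scaffolds and modulators 1 rose and 2 fell, among them the MEK scaffold partner LAMTOR3 (-0.73 ± 0.06). The ERK substrate kinase RPS6KA1 fell (-0.96 ± 0.07), and RPS6KA2 rose (0.75 ± 0.09). The edgeR adjusted p-values from RASGRP1 to RPS6KA2 in HT-1080 were between 8.80e-07 and 0.00295.

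Transcript composition was examined because HNRNPH1 acts on splicing. A transcript's share is its percent of the reads that RSEM assigned to its gene, an estimate where transcripts share most of their exons. NRAS has a single listed transcript, so its share cannot change. Of the members' transcripts with a mean share of 5 to 95%, 7 were tested in HEK-293T and 11 in HT-1080, and limma called none in either line, where the background was 1.56% of 34635 and 2.64% of 29394 transcripts. At an unadjusted limma p under 0.05 there was 1 in HEK-293T and there were 2 in HT-1080. The share of all transcripts under that unadjusted threshold was not counted, so these counts are a description. After adjustment, limma's diffSplice called none. With 3 libraries against 3, an exact permutation test of single shares cannot go below p = 0.10. Groups without overlap give that value. How many of all transcripts show no overlap was not counted, so such cases are a description.

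Some HRAS transcripts had shares without overlap of the groups, given as a description, since limma called none of those tested with all libraries. Its main transcript, ENST00000311189.8, made up 80.0, 81.96 and 81.8% of HRAS reads in HEK-293T siNegative and 85.5, 86.1 and 88.4% in siHNRNPH1. In HT-1080 it made up 75.1, 76.4 and 74.0% against 82.9, 77.9 and 82.2%. The groups do not overlap in either line, at the smallest possible exact permutation p of 0.10 in each. The limma log2 ratio was 0.59 in HEK-293T (adjusted p = 0.244) and 0.51 in HT-1080 (0.186). By diffSplice, which compared only the transcripts tested, it was -0.35 in HEK-293T, opposite in sign (adjusted p = 0.852), and 0.47 in HT-1080 (0.293). The other HRAS transcript tested in HEK-293T, ENST00000397596.6, also rose there, from 6.64, 6.72 and 6.02% to 9.15, 8.98 and 8.17% (limma adjusted p = 0.360). ENST00000451590.5 was at 0 reads in every HEK-293T library. In HT-1080 it averaged 12.9 ± 0.614% and 10.1 ± 2.75% (SD, n = 3), overlapping groups (limma adjusted p = 0.416).

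ENST00000493230.5, a minor HRAS transcript, fell from 7.50, 7.32 and 7.49% to 2.81, 2.68 and 1.62% in HEK-293T (exact permutation p = 0.10). Its mean share was under 5%, so it entered the limma test only without siHNRNPH1 replicate 1, where it was called (log2 ratio -1.91 ± 0.35, limma adjusted p = 0.0408) and the background was 13.3% of 34057 transcripts. With shares of 1 to 99% admitted and all libraries, the limma adjusted p was 0.0857. In HT-1080 it was at 4.40, 3.87 and 6.19% against 2.84, 5.87 and 3.25%, overlapping groups.

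The minor HRAS transcripts ENST00000417302.7 and ENST00000397594.6 lay under the 5% minimum and were singled out after their values were seen. ENST00000417302.7 made up 2.50, 0.963 and 1.46% of HRAS reads in HEK-293T siNegative and 0.169, 0.884 and 0.884% in siHNRNPH1, and 5.31, 3.56 and 1.83% against 1.44, 0 and 1.58% in HT-1080. The siHNRNPH1 values are the lower ones in both lines without overlap, at the smallest possible exact permutation p of 0.10 in each line, but they rest on 0 to 71.8 assigned reads a library. With shares of 1 to 99% admitted, limma gave adjusted p of 0.476 and 0.436. ENST00000397594.6 averaged 0.873 ± 0.315% in the controls and 0.0334 ± 0.0578% after siHNRNPH1 in HEK-293T, and 1.46 ± 0.252% against 0.481 ± 0.225% in HT-1080 (SD, n = 3, exact permutation p = 0.10 in each).

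In ETV4, ENST00000545089.5 made up 2.32, 2.44 and 1.29% of reads in HT-1080 siNegative and 5.69, 6.08 and 6.78% in siHNRNPH1 (exact permutation p = 0.10). The groups do not overlap, and the limma adjusted p with shares of 1 to 99% admitted was 0.0858. ENST00000319349.10 of ETV4 went from 15.4, 17.6 and 12.5% to 11.1, 10.99 and 10.2% (limma adjusted p = 0.213). In HEK-293T the gene had 28 to 75 reads a library, too few to read shares from.

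BRAF's main transcript, ENST00000496384.7, averaged 89.5 ± 0.948% and 87.7 ± 3.52% (SD, n = 3) in HEK-293T and 78.2 ± 8.68% and 69.6 ± 1.36% in HT-1080, with limma adjusted p of 0.688 and 0.388. ENST00000644969.2 was at 0 reads in every HEK-293T library and at 10.7 ± 7.75% and 18.6 ± 2.96% in HT-1080, overlapping groups. The shares of SPRY2, SPRY4 and DUSP6 transcripts tested had adjusted p of at least 0.420 with limma on log ratios and at least 0.370 with diffSplice. ETV5 was nearly all ENST00000306376.10, which in HEK-293T made up 93.6 ± 2.10% of reads in the controls and 98.6 ± 1.72% after siHNRNPH1, against 97.7 ± 0.219% and 98.8 ± 0.373% in HT-1080 (exact permutation p = 0.10 in each). With shares of 1 to 99% admitted, limma gave adjusted p of 0.317 and 0.188 for it.

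**Figure D4:**
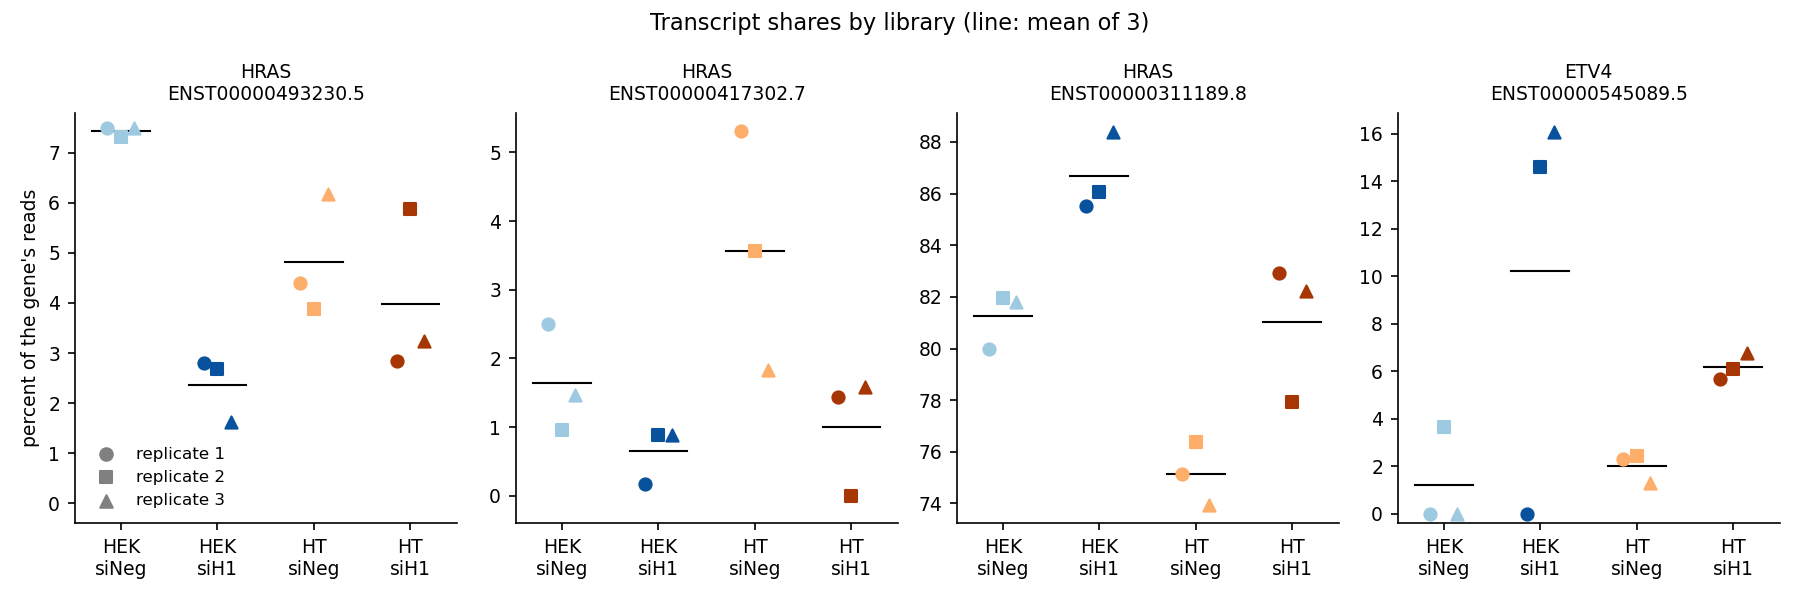
Percent of the gene's reads assigned to 3 HRAS transcripts and 1 ETV4 transcript in each of the 12 short-read libraries, with lines at the means of 3; the axes differ and the third starts above 0. ENST00000493230.5 lies at 7.32 to 7.50% in HEK-293T siNegative and at 1.62 to 2.81% in siHNRNPH1, and ENST00000545089.5 of ETV4 in HEK-293T rests on at most 5.25 reads a library.

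The long-read pools gave 157 transcript models on the strand of the 8 genes, 155 of them with at least 2 exons. The deposited models carry no read counts and each group is 1 pool, so shares of models are descriptions with exact Clopper-Pearson 95% intervals for counting error only. The pools held 64705, 94847, 72186 and 68078 models in all, in the order HEK-293T siNegative, HEK-293T siHNRNPH1, HT-1080 siNegative and HT-1080 siHNRNPH1. In that order NRAS had 12, 17, 14 and 10 models and BRAF 4, 7, 5 and 6. ETV4 had 0, 0, 13 and 12, ETV5 1, 1, 18 and 16, SPRY4 0, 0, 2 and 3, and SPRY2 0, 1, 6 and 4. DUSP6 had a single model, in HEK-293T siNegative, and HRAS had 0, 0, 1 and 3. SPRY4, ETV4 and ETV5, with many reads in HT-1080 and few in HEK-293T, had nearly all their models in HT-1080. So did HRAS and SPRY2, though their siNegative libraries held more reads in HEK-293T. HRAS had 2863 to 3021 reads there against 1144 to 1561 in HT-1080, and SPRY2 2177 to 2485 against 1644 to 1992.

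In HRAS, the 82-base cassette exon lay at chr11:533277-533358 (GRCh38) between the 160-base exon and the 3′ end. It was in 1 of 3 HT-1080 siHNRNPH1 models (33.3%, interval 0.8 to 90.6%) and not in the 1 siNegative model (interval 0 to 97.5%). The model with it ran on to a last exon of 388 bases and lacked the 125 bases at chr11:532631-532755, which were an exon of their own in 2 of the other 3 models and part of a 513-base last exon in the third. The intron next to the 3′ end, chr11:532523-532630, was removed in the siNegative model and in 1 siHNRNPH1 model and held within the last exon of the other 2. The NRAS exon of 179 bases at chr1:114713800-114713978 was skipped in 1 model of each pool and joined to the next exon on its 3′ side in 6, 10, 9 and 8.

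**Figure D5:**
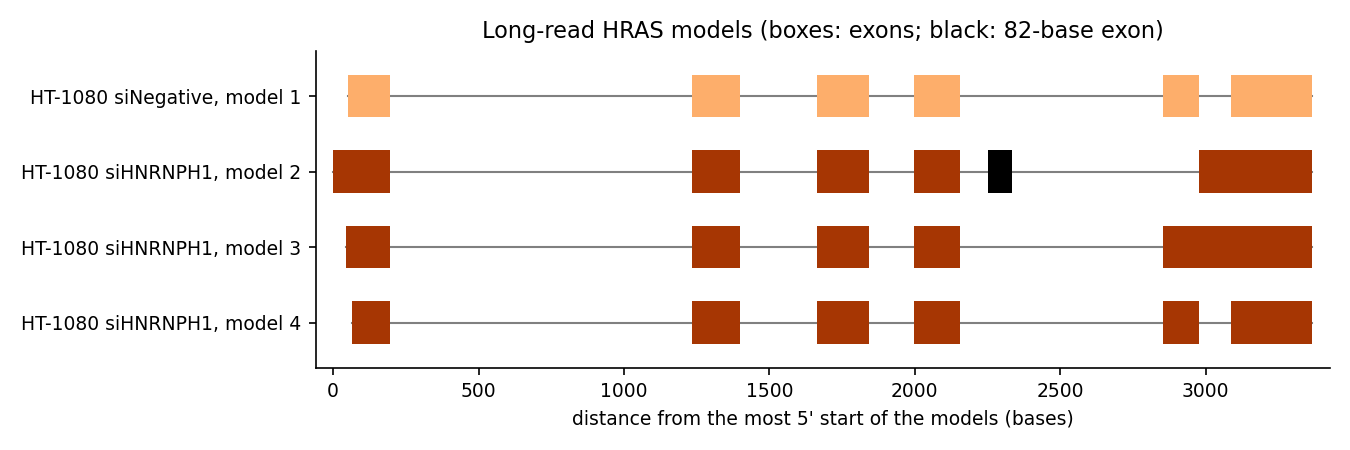
The 4 long-read HRAS models, all from HT-1080 pools, drawn 5′ to 3′ by distance in bases from the most 5′ start, with exons as boxes. The 82-base exon, black, is in model 2 from siHNRNPH1, and models 2 and 3 hold the intron that models 1 and 4 remove near the 3′ end.

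In ETV4, an exon of 162 bases at chr17:43533187-43533348 was skipped in 1 of 13 HT-1080 siNegative models (7.7%, interval 0.2 to 36.0%) and in 5 of 12 siHNRNPH1 models (41.7%, interval 15.2 to 72.3%). The intervals overlap. An ETV4 exon of 48 bases at chr17:43544975-43545022 was skipped in 0 of 13 and 2 of 12. In ETV5, an exon of 112 bases at chr3:186084169-186084280 was skipped by a junction in 10 siNegative and 9 siHNRNPH1 models in HT-1080 and held between its neighbours in 1 and 2. The other models of the 18 and 16 have neither form. A BRAF exon of 154 bases at chr7:140734617-140734770 was skipped in 1, 1, 1 and 0 models of the pools in the order above, and joined to the next exon on its 3′ side in 2, 2, 2 and 3. The strand of the short-read counting is not given in the sources used here, so antisense and overlapping genes matter. SPRY4-AS1 was at most at 0.351 CPM, ETV5-AS1 was at 0 in all 12 libraries, the BRAF pseudogene BRAFP1 was at most at 0.0685 CPM, and LRRC56, beside HRAS, was at most at 1.22 CPM. The ETV4 locus had 3 models on the other strand.

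Genes that moved most like each member were found by Pearson's r of log2(CPM + 1), centred on the siNegative mean of the line, over the 12 libraries and 11751 genes whose counts averaged 50 or more in both lines. They were CPNE3 and SRSF11 for NRAS (both 0.998), KIF1B for BRAF (0.998) and CD99 for HRAS (0.995, listed under 2 identifiers). For the output genes they were BBS1 (0.987) and GRIPAP1 (0.986) for DUSP6, SHLD2 (0.989) and CFAP69 (0.987) for SPRY2, RFXAP (0.990) and FADS1 (0.984) for SPRY4, GALK1 (0.988) and MRPS26 (0.986) for ETV4, and STAT6 (0.992) and CCDC136 (0.982) for ETV5. The points share libraries, and for NRAS, HRAS and BRAF the library HEK-293T siHNRNPH1 replicate 1 lies far from the other 11.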

How the data were processed

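The authors deposited RSEM expected counts per transcript, not scaled for depth, for 12 short-read libraries, and long-read transcript models, with positions but no read counts, for 4 pools. The build was GRCh38.p13, per the submitters' processing notes. Aligner, strandedness and tool versions are not given in the sources used here. Expected counts were summed per gene identifier, rounded and tested with edgeR 4.0.16 (TMM scaling, filterByExpr, robust quasi-likelihood test, two-sided, Benjamini-Hochberg over all genes tested, threshold 0.05). All 8 genes passed the filter in every comparison. Fold changes use TMM scaling and CPM library totals. The standard errors of edgeR fold changes were derived, as the absolute log2 fold change divided by the square root of the test's F statistic. Transcript shares were tested with limma 3.58.1 on log2((count + 0.5)/(rest of the gene + 0.5)), for shares of 5 to 95% in genes with a mean count of at least 50, with exact permutation tests beside it. The scripts were tested on simulated data. DESeq2 1.42.0, other scalings, no filter, other offsets and share limits, thinning, a replicate block and leaving out each library were alternatives. The members, pathway lists and rules were chosen with earlier results of these data known. The naming rule took the 8 members, HNRNPH1, neighbouring genes, list genes called in both lines, and per list and line the 2 called genes with the largest change; some genes it named are not reported here. No sequence is printed.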

Additional observations from a re-analysis of the deposited data

Results flagged for a closer look

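The effect of siHNRNPH1 on DUSP6 differed between the lines by the interaction test, by 1.66 on the log2 scale (edgeR adjusted p = 0.00139): it fell in 3 of 3 HEK-293T libraries and rose in 3 of 3 HT-1080 libraries. The effect on ETV5 differed by 0.75 (edgeR adjusted p = 0.00205), lower in 3 of 3 HEK-293T libraries and overlapping the controls in HT-1080. DUSP6 was near or below 1 CPM in all 12 libraries.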

How the results depend on the processing

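The count of members called in HEK-293T was 3. It ranged from 0 to 6 when 1 library was left out, with 6 only without siHNRNPH1 replicate 1, and was 0 with a replicate block. Genes called in HEK-293T numbered 1997, against 1302 with no filter, 3461 with DESeq2, 4551 with all 12 libraries sharing the spread, 0 with a replicate block and 0 to 12557 when 1 library was left out. The replicate numbers showed no clear pairing. Same-numbered deviations correlated at 0.025, 0.051 and 0.011 in HEK-293T and at -0.023, -0.002 and 0.003 in HT-1080. Different-numbered deviations correlated at -0.035 to 0.012 in HEK-293T and at -0.019 to 0.020 in HT-1080. With siHNRNPH1 replicate 1 far from the others in HEK-293T, the check cannot exclude pairing there. In HT-1080 the members called went from 6 to 3, and genes called from 10538 to 6237, with all 12 libraries sharing the spread. Leaving out 1 library gave 4 to 6 members there, 7 to 8 at baseline, 2 to 5 for the interaction (5 without HEK-293T siHNRNPH1 replicate 1), and 0 to 1 HEK-293T transcript shares. Estimates that changed sign when 1 library was left out ranged from -0.44 to 0.02 for NRAS, from -0.14 to 0.06 for SPRY2 and from -0.72 to 0.16 for ETV4 in HEK-293T, from -0.07 to 0.00415 for ETV5 in HT-1080, and from -0.50 to 0.41 for the ETV4 interaction. ETV5 in HT-1080 was also above 0 with scaling by library totals (0.05). Of 424 values of members under an alternative, 360 kept direction and side of the threshold. The cause was not tested. Comparing models by RefSeq exons was not run, since the table used holds no exon positions. Low counts limit DUSP6 in both lines and SPRY4, ETV4 and ETV5 in HEK-293T, the more deeply sequenced line.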
